A study of Homo sapiens with 6 samples.

Results

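The alkaline phosphatases described here are ALPG, ALPP and ALPL, 3 of the 24305 genes in the tables, all found by their symbols. With talazoparib the germ-cell enzyme ALPG was 3.19-fold higher than in control, and 2.31-fold once a trend over GC content and length was removed. The placental enzyme ALPP, its near-identical neighbour, had overlapping groups (1.09-fold, and 0.799-fold with that trend removed). The bone and liver enzyme ALPL was at or near 0 counts throughout. The members were chosen with values of this same comparison in view, so their differences between the groups are a description and carry no test. The libraries came from DU 145, an established human prostate cancer line that the series uses as a castration-resistant model deficient in homologous recombination repair. Cells had been kept for 48 h with talazoparib, an inhibitor of the DNA repair enzymes PARP1 and PARP2 (n = 3 libraries), or with the control agent (n = 3), spelled DMOS in the labels and taken here as the solvent DMSO. The series names doses of 5, 10 and 20 µM without saying which was sequenced, and PC-3, its other line, was not analysed here. No label states that the libraries of a group came from separate cultures, so every p-value reflects how far these libraries scatter, and that scatter may be technical only. In bulk RNA, more cells with a transcript and more transcript per cell cannot be told apart.

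Alkaline phosphatases are zinc and magnesium enzymes that remove phosphate groups at alkaline pH. A glycosylphosphatidylinositol (GPI) lipid anchor holds them on the outer face of the cell membrane. ALPL, the tissue-nonspecific enzyme, is known for breaking down pyrophosphate and pyridoxal phosphate in bone and liver. ALPP is made by the placenta, ALPG by germ cells and ALPI by the intestine, and ALPP and ALPG are also known as surface antigens of some tumours. In the RefSeq gene order of GRCh38.p14, ALPP (chromosome 2, 232378751 to 232382889), ALPG (232406844 to 232410714) and ALPI (232456153 to 232460753) follow each other on the plus strand, with gaps of 24.0 and 45.4 kb that hold only pseudogenes of other families. ALPL lies on chromosome 1 (21508984 to 21578410).

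Library totals ran from 39123997 to 39585727 counts, and 18027 to 18344 genes had a count. The line's label was checked on marker genes. All 7 epithelial markers had counts, CDH1 the fewest at 24 to 68 per library. In CPM (counts per 1000000 library counts) they summed to 1506 to 1785 in control and 1986 to 2130 with talazoparib, the keratins KRT7, KRT8 and KRT18 making up most of it. On TMM-scaled library sizes the means of CDH1 (1.37 to 0.798 CPM) and KRT8 (583 to 557 CPM) fell. Those of the other epithelial markers rose, KRT7 from 428 to 847 CPM. The basal keratin KRT5 was at 0. The 6 stromal markers summed to 23.5 to 27.1 and 16.8 to 22.2 CPM, mostly COL3A1, with COL1A2, DCN and LUM at 0. The 4 leukocyte markers summed to 0.895 to 1.04 and 1.42 to 2.21 CPM, mostly CD14, with PTPRC and CD3E at 0, and the 3 endothelial markers stayed at or under 0.609 CPM. The part of these shifts in the results below was not tested.

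ALPG had 165, 128 and 91 counts in control replicates 1, 2 and 3, and 378, 336 and 460 counts in talazoparib replicates 1, 2 and 3. On TMM-scaled library sizes that was 4.19, 3.12 and 2.24 in control and 9.84, 8.93 and 11.7 CPM with talazoparib. Every talazoparib library lay above every control library, and the control libraries spread 1.87-fold among themselves. The CPM ranges of the groups were apart for 64.4% of the 14452 genes tested, and 56.7% passed edgeR's test in either direction; for a gene chosen on this comparison nothing is read from either share. Group means were 3.18 ± 0.977 and 10.2 ± 1.39 CPM (SD, n = 3 each), a log2 fold change of 1.67 ± 0.21 (SE). This was the 83rd highest of the 14452 values, whose median was 0.0015. Leaving out 1 library at a time gave 1.44 (without control replicate 3) to 1.88 (without control replicate 1). With the GC and length trend described below removed, the value of ALPG was 1.21, and 186 of 13718 genes, ALPG included, reached it.

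ALPP had 1008, 878 and 872 counts in control replicates 1, 2 and 3 and 902, 959 and 1003 counts in talazoparib replicates 1, 2 and 3. Scaled, these were 25.6, 21.4 and 21.5 CPM in control and 23.5, 25.5 and 25.4 CPM with talazoparib. The groups overlapped, control replicate 1 being the highest of the 6 libraries. Group means were 22.8 ± 2.42 and 24.8 ± 1.14 CPM (SD, n = 3 each). The log2 fold change was 0.12 ± 0.11 (SE), close to the SD of log2 CPM within the groups (0.12), at the 57.29th percentile of all genes tested. With the GC and length trend described below removed, it turned to -0.32 ± 0.08 (SE).

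ALPL had 0 counts in the 3 control libraries and 0, 0 and 2 counts with talazoparib. ALPI, the intestinal enzyme and no member, had 0 in control and 1, 1 and 0 counts with talazoparib. Neither passed the filter on low counts, so 2 of the 3 members were tested in the fit across all genes. A count of 0 over the control libraries together (118099386 counts) is read here with a limit of 3 counts (one-sided, 95%), or 0.0254 CPM, for each of them. The 2 talazoparib counts of each have a 95% exact Poisson interval, taken on both sides, of 0.242 to 7.22 counts, for counting error only. Both groups' summed counts, 0 and 2, are under 3, so no fold is given.

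**Figure D1:**
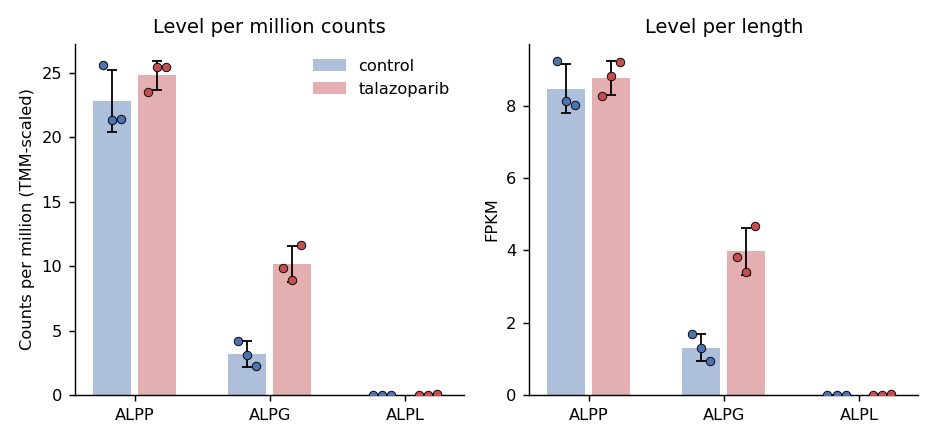
Levels of ALPP, ALPG and ALPL in each library (points) with group means (bars) and SD (lines), n = 3 per group, as TMM-scaled CPM (left) and as the authors' FPKM (right). ALPG is higher in every talazoparib library, at 8.93 to 11.7 CPM against 2.24 to 4.19 CPM, the ALPP groups overlap, and ALPL lies on the axis.

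Per length, ALPP was the highest of the family in every library. Its FPKM (counts scaled to gene length and library total, as deposited by the authors) was 8.48 ± 0.676 in control and 8.78 ± 0.480 with talazoparib (SD, n = 3 each). ALPG followed with 1.30 ± 0.374 and 3.98 ± 0.642 FPKM. ALPL (0.0179 FPKM in talazoparib replicate 3) and ALPI (at most 0.00782 FPKM) came last, and their order cannot be told from 2 counts each. In control the ALPP level per length was 5.53, 6.21 and 8.67 times the ALPG level in replicates 1, 2 and 3, and with talazoparib 2.16, 2.58 and 1.97 times. The order of ALPP and ALPG was thus the same in all 6 libraries while the distance between them was smaller in the talazoparib libraries.

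Seen as a share of the counts of both copies, ALPG held 14.07% (95% Wilson interval 12.19% to 16.17%), 12.72% (10.81% to 14.93%) and 9.45% (7.76% to 11.46%) in control replicates 1, 2 and 3. With talazoparib it held 29.53% (27.1% to 32.09%), 25.95% (23.63% to 28.4%) and 31.44% (29.11% to 33.87%). Every talazoparib share lay above every control share, a description of the counts on which the members were chosen. The intervals cover counting error within a library only, reads being no independent molecules, and neither the scatter between libraries nor the uncertain split of reads. The mean share was 12.1% ± 2.38 in control and 28.97% ± 2.79 with talazoparib (SD, n = 3 each). Summed, the copies had 1173, 1006 and 963 counts in control and 1280, 1295 and 1463 with talazoparib. As 1 row in the same fit the sum had a log2 fold change of 0.43 ± 0.11 (SE).

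**Figure D2:**
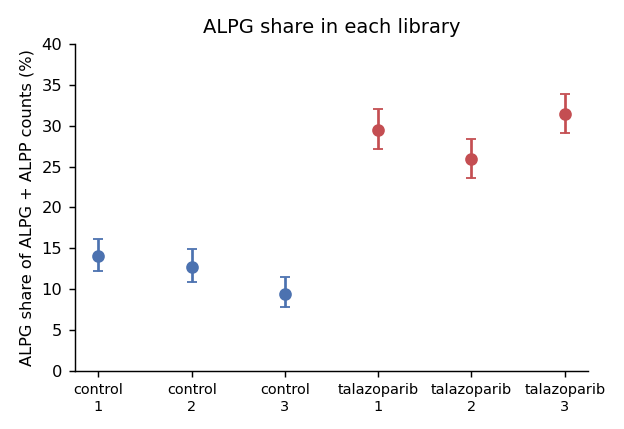
ALPG share of the summed ALPG and ALPP counts (y axis, %) in each of the 6 libraries (x axis), with 95% Wilson intervals. Control libraries lie between 9.45% and 14.07% and talazoparib libraries between 25.95% and 31.44%.

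The counts of these copies depend on reads being told apart, so their transcripts were compared. In GENCODE release 29 their coding sequences (1605 nt in ALPP and 1596 nt in ALPG, 11 exons each) were identical at 97.81% of aligned positions, with 35 mismatches. Most of what separates the copies lies behind the coding sequence. Of the 1596 coding bases of ALPG, 35 (2.19%) differed from ALPP when the full transcripts were aligned, against 187 of the 845 bases after it (22.13%) and 11 of the 52 bases before it. The longest identical run was 339 nt. Of all 100-base windows of the ALPG transcript, 15.83% occurred unchanged in the ALPP transcript, and of those of ALPP 13.2% occurred in ALPG. The shares were 29.3% and 24.5% for 50 bases and 8.49% and 7.05% for 150 bases. Neither the read length nor the handling of reads that match both copies is given in the sources used here. These shares count exact matches only and change with the window length. The split between the copies is thus uncertain, to an extent that cannot be given here. The coding sequence of ALPI was 89.71% identical to that of ALPP and 89.46% to that of ALPG, and ALPI was listed with 0 or 1 count. ALPL was further away, at 70.97% and 71.6%.

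**Figure D3:**
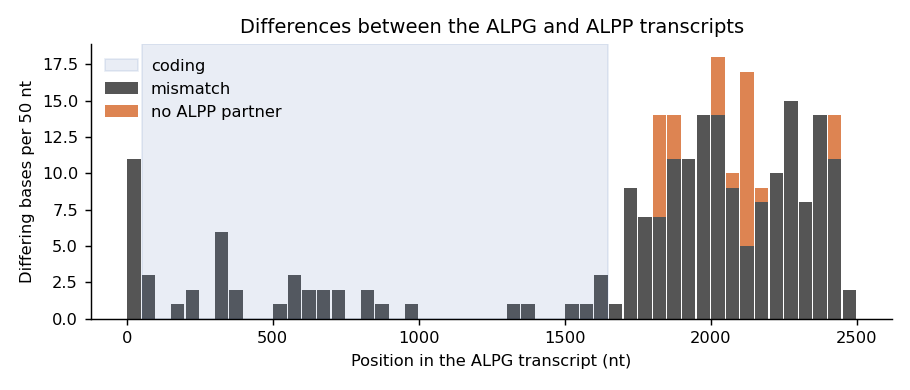
Bases of the ALPG transcript (x axis, position in nt, GENCODE release 29) that differ from the aligned ALPP transcript per window of 50 nt (y axis), as mismatches or as bases with no ALPP partner, with the coding part shaded. Differences are sparse in the coding part (2.19% of its bases) and dense after it (22.13%).

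The stretches before the starts of ALPP and ALPG are shown because the transcripts of these neighbours differed between the groups to unlike degrees. They are the 250 bases before the RefSeq starts in GRCh38.p14, plus strand, at chr2:232378501-232378750 for ALPP and chr2:232406594-232406843 for ALPG. Capitals mark bases that mismatch or have no partner in the alignment.
ALPP promoter: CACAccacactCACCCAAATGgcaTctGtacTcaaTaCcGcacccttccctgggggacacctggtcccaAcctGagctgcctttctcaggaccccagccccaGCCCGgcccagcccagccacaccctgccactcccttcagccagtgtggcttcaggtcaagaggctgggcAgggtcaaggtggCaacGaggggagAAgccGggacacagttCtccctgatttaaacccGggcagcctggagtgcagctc
ALPG promoter: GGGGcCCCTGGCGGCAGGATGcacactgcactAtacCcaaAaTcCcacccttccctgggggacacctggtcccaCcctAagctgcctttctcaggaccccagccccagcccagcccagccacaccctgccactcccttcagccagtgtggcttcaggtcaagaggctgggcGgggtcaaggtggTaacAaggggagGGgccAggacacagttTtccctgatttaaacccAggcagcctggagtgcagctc
They were 91.88% identical over aligned bases, with 19 mismatches. The same stretch of ALPI was 76.62% identical to that of ALPP and 80.2% to that of ALPG. GENCODE release 29 starts its ALPP transcript 217 bases before the RefSeq start, so most of the ALPP stretch is exonic in that annotation. Short motifs were searched on both strands of these and of all 35116 such stretches. Both copies held the TATA-like TTTAAA, beginning 30 bases before the start, and 11.3% of all stretches held it. Both held AGGTCA, which nuclear receptors can bind, at 96 bases (12.1% of all stretches). Both held CCACACCC, of the kind bound by KLF factors, at 132 bases (2.97% of all stretches). The GC box GGGCGG was found at 83 bases in the ALPG stretch and not in that of ALPP, and 42.6% of all stretches held it. Neither held the AP-1 motif TGANTCA (6.57% of all stretches). No match overlapped another in these stretches. The GC box was also found before the family genes with almost no counts. The stretch of ALPI held 1 match to it, and the stretches before the starts of ALPL held 4 together. The other motifs found in both copies were each found in the stretch of ALPI and in none of those of ALPL. A match is a run of letters and says nothing of binding here.

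Changes across all genes ran with the composition of the mRNA in these libraries, and ALPG and ALPP are GC-rich. The ALPG transcript has 62.45% GC and a deposited length of 2492 nt, the ALPP transcript 61.63% and 2754 nt. Of the 1372 tested genes in the GC decile of ALPG, 66.2% rose and 0.875% fell by edgeR's test, with a median log2 fold change of 0.43. In that of ALPP 61.6% rose and 1.31% fell, with a median of 0.38. Across all genes tested, 26.8% rose and 29.9% fell. After each library's trend over GC content and length was taken out as an offset (called trend-removed from here on), ALPG stood at 1.21 ± 0.19 (SE; 2.31-fold) and ALPP at -0.32. The fitted trend alone was 0.48 for ALPG and 0.45 for ALPP on the log2 scale. The copies are close in GC content and length, so near-equal offsets were bound to follow. That the gap between the copies stayed is therefore no test of composition. With GC content alone taken out the values were 1.26 and -0.29, and with length alone 1.56 and 0.04. Whether the trend belongs to the response to the drug or to the preparation of the libraries was not tested.

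The nearest genes on either side were then compared, by edgeR's test across all genes. Around the chromosome 2 group, 2 of 8 neighbours fell and none rose, beside 29.9% and 26.8% of all genes tested. DIS3L2, a 3′ exonuclease gene 34.4 kb before ALPP, was at 17.4 ± 1.37 CPM in control and 14.7 ± 0.490 CPM with talazoparib (SD, n = 3 each; log2 fold change -0.24 ± 0.11, SE, edgeR adjusted p = 0.0912). It passed as lower with total count scaling (-0.31), in both FPKM fits and trend-removed (-0.44). TIGD1, 83.1 kb behind ALPI, fell by 0.50 on the log2 scale and the translation repressor gene GIGYF2 by 0.40, and trend-removed they stood at 0.06 and 0.07, past the test in neither case. EIF4E2, which encodes a cap-binding protein, was at 0.10, the calcium-binding EFHD1 at 0.03, the natriuretic peptide gene NPPC at 0.82 ± 0.41 with under 1 CPM, COPS7B at 0.11 and PDE6D at 0.10, none past the test. EIF4E2 was higher trend-removed (0.26). The difference between ALPG and its neighbours was not tested, since ALPG was chosen on this comparison.

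Around ALPL, a gene with almost no counts, 2 of 8 tested neighbours rose and 4 fell, beside 26.8% and 29.9% of all genes tested. ECE1, the endothelin-converting protease, rose from 449 ± 8.30 to 729 ± 46.5 CPM (log2 fold change 0.70 ± 0.07, SE; trend-removed 0.55), and RAP1GAP, a regulator of the GTPase RAP1, rose by 0.57 (trend-removed 0.24, not past the test). The deubiquitinase USP48 (-1.01), the translation factor EIF4G3 (-0.80), the chromatin protein HP1BP3 (-0.48) and the matrix proteoglycan HSPG2 (-0.38) fell. HP1BP3 was higher trend-removed (0.42), while USP48 (-0.59), EIF4G3 (-0.30) and HSPG2 (-0.35) were still lower. NBPF3, the closest before ALPL at 24.1 kb, had -0.36 ± 0.15 and did not pass (edgeR adjusted p = 0.0590), though it did pass with total count scaling (-0.43) and in both FPKM fits. NBPF3 belongs to a family of near-identical copies, so its counts are uncertain. LDLRAD2, whose span overlaps that of HSPG2, had 0.62 ± 0.35 at under 1 CPM.

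**Figure D4:**
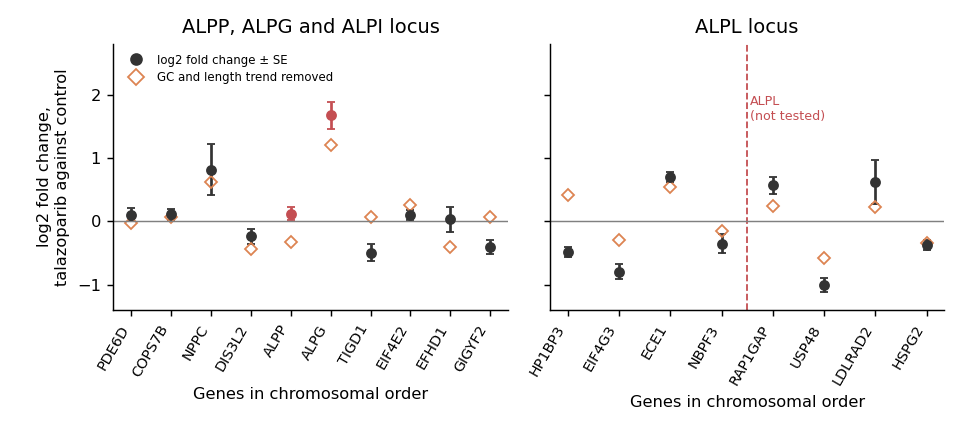
Log2 fold change with SE (points and lines, y axis) of the 4 nearest tested genes on each side of the ALPP, ALPG and ALPI locus (left) and of ALPL (right), in chromosomal order, with ALPP and ALPG in red and trend-removed values as open diamonds. ALPG stands at 1.67, and the neighbours on its chromosome lie between -0.50 and 0.82.

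Genes with the most similar pattern were sought as those with the smallest distance of centred log2 CPM over the 6 libraries, among 12550 genes of at least 1 CPM; this describes the pattern and shares its libraries. Nearest to ALPG were TJP3, a tight-junction scaffold (distance 0.45), SPINK4, a protease inhibitor (0.51), HLA-DQB1, an MHC class II chain with close copies (0.58), NAPSA, an aspartic protease (0.60), and TRAPPC6A, a vesicle tethering subunit (0.62). SPINK4 went from 4.25 ± 0.780 to 13.3 ± 0.440 CPM and TJP3 from 1.55 ± 0.204 to 4.796 ± 0.219 CPM (SD, n = 3 each). Nearest to ALPP were CD40, a TNF-family receptor (0.052), TMEM52 (0.052), the gamma-secretase subunit PSEN2 (0.069), ABT1 (0.070) and the signal peptidase subunit SPCS1 (0.076). CD40 stood at 13.5 ± 1.27 CPM in control and 14.8 ± 0.542 CPM with talazoparib. For ALPL, with 2 counts in all, no such search was made.

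The genes that anchor and load these enzymes were counted from lists. A list gene rose or fell where edgeR's test passed, adjusted by Benjamini-Hochberg over every gene tested, and the shares to set beside the counts are the 26.8% and 29.9% above. Of 29 GPI anchor genes tested, 12 rose and 6 fell, leaving 11 without a call, and the list's median log2 fold change was 0.19. GPAA1, a subunit of the transamidase that attaches the anchor, went up from 224 ± 21.1 to 352 ± 23.0 CPM, and the anchor-remodelling phosphatase MPPE1 from 59.3 ± 2.17 to 94.1 ± 2.999 CPM (SD, n = 3 each). Their log2 fold changes were 0.65 and 0.67, and trend-removed 0.13 and 0.71. The transamidase subunits PIGT (0.35) and PIGS (0.28) rose and were at -0.06 each trend-removed. PIGA, part of the enzyme of the opening step, fell from 3.94 ± 1.06 to 0.888 ± 0.334 CPM (log2 fold change -2.14 ± 0.30, SE; trend-removed -1.45), and PIGN fell (-0.88; trend-removed -0.02, not past the test). Trend-removed, 9 rose and 3 fell, against 21.9% and 22.4% of the 13718 genes in that fit.

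Zinc reaches these enzymes through transporters of the secretory pathway. In the list of zinc transporters and metallothioneins, 8 of 19 rose and 7 fell, the median being -0.10. SLC30A6 and SLC30A7, which load alkaline phosphatases with zinc, fell (-1.03 and -0.83), while SLC30A5, the partner of SLC30A6, was at -0.10 and did not pass. Trend-removed these stood at -0.19, 0.11 and 0.52, with a pass for SLC30A5 alone, as higher. SLC30A5 and SLC30A7 were named for this role after their values were seen. The metallothionein MT2A, which binds zinc and has close copies, rose from 104 ± 16.3 to 202 ± 13.0 CPM (SD, n = 3 each; trend-removed log2 fold change 0.23), and the zinc importers SLC39A10 (-1.45) and SLC39A6 (-0.91) fell while SLC39A1 (0.51) rose. Trend-removed these were nearer to 0, at -0.47, -0.42 and 0.16, and still past the test. SLC39A14 was at -0.10 and did not pass, and was lower under total count scaling (-0.17) and higher trend-removed (0.17). Trend-removed, 6 of the list rose and 3 fell.

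Of other proteins held by the same anchor, 9 of 16 tested rose and 3 fell, the median being 0.36. PLAUR, the urokinase receptor, had 64.7 ± 2.14 CPM in control and rose to 95.6 ± 6.68 CPM (SD, n = 3 each). Likewise LY6K (0.51), EFNA1 (0.58), LY6E (0.45), the proteoglycan GPC1 (0.42) and the complement inhibitor CD59 (0.29) rose. Trend-removed, CD59 stood at 0.80, LY6K at 0.36 and PLAUR at 0.26, whereas GPC1 (0.01) and EFNA1 (0.08) did not pass and LY6E was lower (-0.17). The count of falls went from 3 to 1 without control replicate 2 or 3 or without talazoparib replicate 2 or 3, and trend-removed 5 rose and 2 fell.

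Genes that act on the substrates went both ways. In the list of phosphate, pyrophosphate and vitamin B6 handling, 3 of 17 rose and 5 fell, the median being -0.13. ENPP1, which makes the pyrophosphate that ALPL breaks down, fell from 13.4 ± 2.46 to 5.42 ± 0.944 CPM (SD, n = 3 each; log2 fold change -1.30 ± 0.18, SE; trend-removed -0.57). The pyrophosphate exporter ANKH, named for its role after its values were seen, fell by 0.52 and did not pass trend-removed (-0.05). The phosphate exporter XPR1 (-1.21; trend-removed -0.27) and the pyridoxal phosphate binding protein PLPBP (-0.57; trend-removed -0.30) fell, and PDXP, a pyridoxal phosphatase, rose (0.54; trend-removed 0.01, not past the test). The pyrophosphatase PPA1 (-0.14) did not pass, though it was lower without talazoparib replicate 3 (-0.26), and the kinase PDXK (0.08) did not pass either.

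The acid phosphatases, enzymes of another fold, were mostly low: 3 of 7 were tested. ACP3, the prostatic acid phosphatase, had 6, 1 and 0 counts in control and 9, 6 and 5 with talazoparib. ACP1 fell from 88.1 ± 1.76 to 64.5 ± 7.90 CPM (SD, n = 3 each), a log2 fold change of -0.45, and -0.16 trend-removed. ACP2, the lysosomal enzyme, rose by 0.23, a call lost without control replicate 2 (0.18) or 3 (0.18) or talazoparib replicate 1 (0.23) or 2 (0.17), and trend-removed it was lower (-0.19). ACP6 (0.16) did not pass and was higher trend-removed (0.81).

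Since ALPP and ALPG are placental and germ-cell enzymes, genes of those tissues were counted too. Among 26 placental genes measured, 12 were tested, of which 3 rose and 3 fell, with a median of 0.14. The pregnancy glycoprotein PSG9, 1 of a family of close copies, fell from 20, 20 and 31 counts to 5, 4 and 4, the retrotransposon-derived PEG10 from 98.2 ± 13.1 to 43.0 ± 5.19 CPM and the transcription factor TFAP2A from 70.6 ± 0.595 to 44.0 ± 1.91 CPM (SD, n = 3 each). PLAC1 rose from 23, 40 and 34 to 70, 53 and 52 counts (log2 fold change 0.92), a call lost without control replicate 1 (0.70) or 3 (0.92) or talazoparib replicate 1 (0.77). The number of rises was 1 without control replicate 1 or 2 and 0 without control replicate 3 or talazoparib replicate 1. TFPI2 (0.23) and TEAD3 (0.13) did not pass; trend-removed, TFPI2 was higher (0.68) and TEAD3 lower (-0.27). Among germ cell and pluripotency genes 3 of 11 were tested. SALL4 fell from 4.29 ± 0.725 to 1.67 ± 0.195 CPM (SD, n = 3 each), and the tumour antigen PRAME (-0.11) and NANOS3 (0.27) did not pass, PRAME being lower trend-removed (-0.32).

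Bone genes, the setting of ALPL, were mostly absent: 5 of 18 were tested, of which 2 fell and 0 rose (median -0.33). RUNX2, the osteoblast regulator, fell from 4.85 ± 0.711 to 2.68 ± 0.858 CPM (SD, n = 3 each; trend-removed log2 fold change -0.33, not past the test). BMP6 fell by 1.12, a call lost without control replicate 2 (-1.03) or talazoparib replicate 2 (-0.86). BMP4 (-0.33; lower trend-removed, -0.62), MSX2 (-0.22) and COL1A1 (-0.0056) did not pass.

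Steroids, retinoids and vitamin D are known to act on ALPL in several tissues. In a list of their receptors and response genes, 6 of 13 rose and 4 fell, the median being 0.30, and the rises numbered 3 without control replicate 2 or 3. CRABP2, a retinoic acid carrier, rose from 9.19 ± 2.12 to 18.0 ± 0.469 CPM (SD, n = 3 each; trend-removed log2 fold change 0.50). CYP26B1, which breaks down retinoic acid, fell from 49.8 ± 3.92 to 34.5 ± 1.76 CPM (trend-removed -0.77). The glucocorticoid receptor NR3C1 (-0.92) and its response gene FKBP5 (-0.57) fell, and both were higher trend-removed (0.21 and 0.29). Other steroid response genes of the list went both ways. TSC22D3 rose (0.73, trend-removed 0.55) and KLF9 fell (-0.87, trend-removed -0.60), both named after their values were seen. RARG (0.28), lost without control replicate 2 (0.19) or 3 (0.23), and PER1 (0.31), lost without control replicate 2 (0.23) or talazoparib replicate 2 (0.23), rose and did not pass trend-removed (-0.11 and -0.05).

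**Figure D5:**
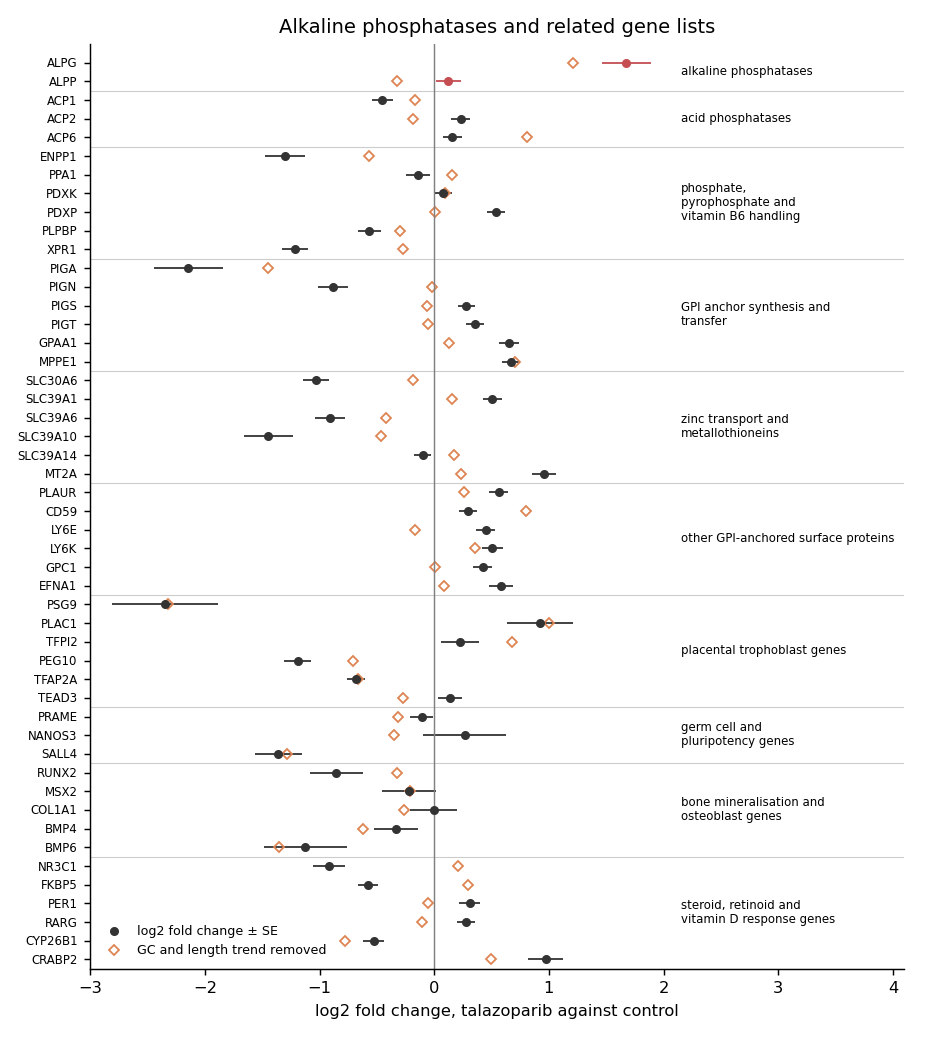
Log2 fold change with SE (points and lines, x axis) of ALPG and ALPP (red) and of the named genes of each list (y axis), with trend-removed values as open diamonds. ALPG, chosen on this comparison, stands at 1.67 and 1.21, to the right of every list gene shown. Trend-removed, the list genes ENTPD1 (1.64) and PHOSPHO2 (1.55), not named by rule and not shown, lie further right. PSG9 is the lowest shown (-2.35 and -2.32), and PIGA, 1 of the anchor genes, stands at -2.14 and -1.45.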

How the data were processed

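Total RNA was extracted with TRIzol and made into libraries with the VAHTS Universal V6 kit, per the labels' protocols. Trimmomatic, HISAT2, HTSeq, Cufflinks and GRCh38 appear in the submitters' processing notes; their versions, the annotation and the strandedness were not given in the sources used. The authors deposited whole-number counts for 24305 gene symbols and FPKM values of the same genes. Each deposited FPKM equals the count scaled to a gene length and to the column total; the implied lengths were whole within 0.01 nt for 99.95% of genes with a count, and were used as lengths.

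The tests used edgeR 4.0.16 under R 4.3.3: filterByExpr (minimum count 10, leaving 14452 genes), TMM, robust quasi-likelihood test, Benjamini-Hochberg adjustment at 0.05. The SE is the absolute log2 fold change over the square root of F. The main edgeR procedure, without the trend offset, was tested on data simulated with no GC or length trend between the groups. For the trend-removed fit, GC content came from GENCODE release 29 transcripts and was had for 13718 tested genes (94.9%); natural splines (5 degrees of freedom each) of log2 CPM (prior count 2) gave an offset. Members and lists were chosen with earlier results of these data known. Named were the 4 smallest adjusted p and up to 2 highest levels per list, the 4 nearest tested genes on each side of a locus, and the 5 nearest patterns. Genes named for their role are marked. Alternatives were DESeq2 1.42.0, limma 3.58.1 on log2(FPKM + 0.1) and log2(FPKM + 1), other scalings, no filter, the replicate block, leaving out each library, and the trend offsets; those with GC or length alone were chosen after seeing the data. A marker list and a coding stretch are not reported here. Sequences are RefSeq's (GRCh38.p14) and GENCODE's, compared by global alignment.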

Additional observations from a re-analysis of the deposited data

How the results depend on the processing

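The log2 fold change of ALPG stayed above 0 in every fit run; it moved by more than the spread between libraries on log2(FPKM + 1) (1.12), trend-removed (1.21), with GC alone removed (1.26) and when ALPG and ALPP were summed (0.43). It ran from 1.44 to 1.88 over the fits that left out 1 library. ALPP ran from 0.04 to 0.17 over those, and went to -0.32 trend-removed and -0.29 with GC alone removed. With no filter, ALPL and ALPI still have 2 counts each, and no value is given for them.

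The labels do not say whether the replicate numbers pair the libraries. Deviations from the group means correlated at -0.09, -0.17 and 0.0036 between libraries of the same number, and no library correlated best with its own number. Deviations from a mean of 3 libraries are bound to each other, so these values cannot exclude a pairing. With the replicate block, ALPG stood at 1.70, ALPP at 0.13, and 3419 genes rose and 4161 fell, against 3873 and 4327. Under the block the acid phosphatase list had 0 rises, the other GPI-anchored proteins 1 fall and the placental list 1 rise. The acid phosphatase list also had 0 rises under total count scaling, without the filter and on both FPKM scales, the GPI-anchored list 1 fall on both FPKM scales, and the placental list 1 rise under total count scaling. Trend-removed, falls numbered 2 for acid phosphatases, 3 for GPI anchor genes, 3 for zinc genes, 5 for placental genes, 2 for germ cell genes and 2 for steroid and retinoid genes, and rises 5 for other GPI-anchored proteins. The cause was not tested.

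Leaving out 1 library, rises ranged from 0 to 1 (acid phosphatases), 0 to 2 (placental) and 3 to 6 (steroid and retinoid), and falls from 1 to 3 (other GPI-anchored) and 1 to 2 (bone). Of 117 list genes tested in both fits, 31 turned in sign trend-removed, with a call in at least 1 of the fits. Among the genes chosen by rule or for their role, neighbours included, these were ACP2 (-0.19), FKBP5 (0.29), GIGYF2 (0.0688), HP1BP3 (0.42), LY6E (-0.17), NR3C1 (0.21), NT5E (0.23), PER1 (-0.0515), PIGS (-0.0616), PIGT (-0.0578), RARG (-0.11), SLC30A5 (0.52), SLC30A7 (0.11), SLC39A14 (0.17), TEAD3 (-0.27) and TIGD1 (0.0601). Of these, NT5E was named for its role and not by the rule. Depth limits ALPL and ALPI, of which under 3 counts per library were seen.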
